A study of Mus musculus with 12 samples.

Results

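Proliferating Langerhans cells (LCs) of the hind paw epidermis were the LCs that carried transcripts of 4 cell division genes: Mki67, which coats mitotic chromosomes, Top2a, which untangles sister DNA, Pclaf, which binds the replication clamp, and Birc5, which guides chromosome segregation. They were chosen by their counts of unique molecular identifiers (UMIs), each of which marks 1 captured transcript. Among barcodes with 200 to 6000 detected genes and at most 5% mitochondrial UMIs, an LC held at least 2 UMIs of Cd207 (langerin, the lectin that defines LCs), at least 5 UMIs of Cd74 (the invariant chain of MHC class II), no UMI of Ccr7, the receptor of LCs that leave for the lymph node, and under 0.5% of its UMIs from the keratins Krt1, Krt10, Krt5 and Krt14. An LC was taken as proliferating when the 4 division genes summed to at least 2 UMIs. This gave 198 proliferating LCs of 2692 LCs and of 140392 deposited barcodes, and the 2494 other LCs, with 0 or 1 UMI of these genes, were the comparison.

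The libraries were made from the glabrous hind paw epidermis of 12 wild-type C57BL/6J mice, 1 library per mouse, without any sort for LCs. There were 3 male and 3 female mice on regular diet (RD, 11% fat) and 3 male and 3 female mice on high-fat diet (HFD, 42% fat), a diet that serves as a model of painful diabetic neuropathy. Feeding started at 6 to 8 weeks of age and lasted 10 weeks, so that all mice were 16 to 18 weeks old, and no drug was given to any group. The headers of the count matrices name version 6.1.0 of Cell Ranger, the counting software, for every male and version 7.2.0 for every female library, so sex and counting software cannot be told apart in any value below.

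LCs are the antigen-presenting cells of the epidermis. They settle in the skin early in life and, in the unperturbed epidermis, keep their number by dividing in place, with little supply from the blood. A dividing cell makes deoxynucleotides and replication proteins before and during S phase, makes histones while DNA is copied, and then switches on the genes of G2 and mitosis, which build the spindle, the kinetochores and the machinery that destroys cyclins. The order is written into the promoters: genes of the start of S phase often carry sites for E2F factors, while genes of G2 and mitosis often pair CCAAT boxes, bound by NF-Y, with a cell cycle homology region (CHR), bound by the MuvB complex through its subunit Lin54.

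The promoters of the 4 genes that chose the cells are shown because they carry these elements. Each sequence is the RefSeq window of the GRCm38.p6 assembly from 250 bases before to 50 bases after a transcription start, written 5′ to 3′ on the strand of the gene. Capitals mark every match, on either strand, to CCAAT, to the CHR letters TTTGAA or TTTAAA, or to the E2F letters TTTCCCGC, TTTGGCGC, TTTGCCGC or TTTCGCGC, and no match overlapped another. Mki67 lies at chr7:135716330-135716629 on the minus strand, Top2a at chr11:99024140-99024439 on the minus strand, Pclaf at chr9:65890073-65890372 on the plus strand and Birc5 at chr11:117848987-117849286 on the plus strand.
Mki67: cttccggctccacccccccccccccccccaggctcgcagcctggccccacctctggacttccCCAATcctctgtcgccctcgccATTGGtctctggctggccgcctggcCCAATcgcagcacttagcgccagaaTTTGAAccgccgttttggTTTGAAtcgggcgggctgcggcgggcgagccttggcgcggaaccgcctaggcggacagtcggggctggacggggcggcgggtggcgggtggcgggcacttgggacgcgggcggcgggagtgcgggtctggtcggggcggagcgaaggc
Top2a: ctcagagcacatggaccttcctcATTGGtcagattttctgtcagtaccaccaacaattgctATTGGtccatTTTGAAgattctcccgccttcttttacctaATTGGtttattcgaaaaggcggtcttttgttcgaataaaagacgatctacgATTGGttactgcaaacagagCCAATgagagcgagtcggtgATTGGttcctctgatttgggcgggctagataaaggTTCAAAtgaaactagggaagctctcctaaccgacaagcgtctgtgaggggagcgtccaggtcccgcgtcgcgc
Pclaf: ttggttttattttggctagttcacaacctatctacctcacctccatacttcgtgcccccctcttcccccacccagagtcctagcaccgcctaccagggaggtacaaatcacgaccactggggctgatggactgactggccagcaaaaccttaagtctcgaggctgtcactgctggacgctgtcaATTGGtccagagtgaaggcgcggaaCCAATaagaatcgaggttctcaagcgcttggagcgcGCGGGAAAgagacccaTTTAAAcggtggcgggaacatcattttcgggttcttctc
Birc5: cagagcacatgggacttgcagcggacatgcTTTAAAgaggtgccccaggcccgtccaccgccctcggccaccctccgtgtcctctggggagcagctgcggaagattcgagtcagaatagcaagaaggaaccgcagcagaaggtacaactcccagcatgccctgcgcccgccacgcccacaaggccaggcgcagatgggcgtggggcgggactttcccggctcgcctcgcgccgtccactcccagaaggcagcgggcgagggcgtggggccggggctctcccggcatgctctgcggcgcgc
The promoter of Mki67 held 3 CCAAT boxes and 2 CHR letters, and that of Top2a 6 CCAAT boxes and 2 CHR letters. The promoter of Pclaf held 2 CCAAT boxes, 1 CHR and 1 E2F match, the latter 5 bases before the start. In the window of Birc5 the only match was the CHR letters TTTAAA, 220 bases before the start.

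Among all 32851 promoters of the same length, 37.4% held CCAAT, 27.6% a CHR, 2.26% an E2F match and 10.7% both CCAAT and a CHR. A list of 62 genes of G2 and mitosis, without the 4 genes of the rule, was matched to 55 promoters of 50 genes, of which 81.8% held CCAAT, 80% a CHR and 70.9% both. For 52 genes of S phase, 46 promoters of 38 genes were found, of which 30.4% held an E2F match and 17.4% both CCAAT and a CHR. The promoters of MHC class II genes and their helpers (10 promoters) held CCAAT in 70% and a CHR in 10%. These matches are counts of letters and were not tested as binding sites.

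The LCs of a mouse numbered between 113 and 381, and its proliferating LCs between 5 and 31. No barcode occurred among the proliferating LCs of more than 1 library, and 9 of the 198 barcodes had also been deposited for another library. The proliferating LCs had a median of 7500.5 UMIs and the other LCs of 5316, and all comparisons of levels therefore use UMIs per 10000 UMIs of the same cells. The cells of male RD 2 were shallow, with a median of 2642.5 UMIs in the other LCs. None of the 198 cells had a UMI of the T cell receptor complex genes Cd3e, Cd3d or Cd3g, 21 had none of the 4 keratins, and the median share of these keratins was 0.0389% of the UMIs. Cd207 had a median of 26 UMIs and Cd74 of 142.5 UMIs per cell, genes which the rule itself demanded.

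The 198 cells differed widely in how many division transcripts they held. In 109 of them the 4 genes summed to just 2 or 3 UMIs, and in 68 of these 109 every such UMI came from Mki67. The other 89 held 4 to 52 UMIs, 80 of them with at least 2 of the 4 genes and 49 with all 4. Over all 198 cells, Mki67 was found in 91.9%, Birc5 in 48.0%, Top2a in 39.9% and Pclaf in 36.4%. Next to the threshold, 412 LCs had exactly 1 UMI and 81 had exactly 2.

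The remaining cell-cycle genes, which the rule did not use, set these parts apart. The summed level of the G2 and mitosis list was 9.97 UMIs per 10000 in LCs without a UMI of the 4 genes, 9.96 at 1 UMI, 9.82 at 2 UMIs and 11.9 at 3 UMIs, and then 56.5 at 4 to 9 UMIs, 96.9 at 10 to 19 and 133 at 20 or more. The S phase list read 6.07, 6.22, 7.80, 11.8, 30.7, 40.1 and 36.7 UMIs per 10000 in the same order. These bins pool cells of different mice, and the level of the S phase list in other LCs ranged from 4.65 to 7.01 over mice. Within males the S phase list was at 11.9 in cells with 2 or 3 UMIs against 5.37 in other LCs, and within females at 8.27 against 6.38. For the G2 and mitosis list the values in cells with 2 or 3 UMIs were 13.3 against 11.6 in males and 9.78 against 9.34 in females, and LCs with 4 or more UMIs, at 131 and 84.0, were far above. The identity genes of LCs went down slowly along the same axis, from 156 UMIs per 10000 at 0 UMIs to 139 at 4 to 9 UMIs and 106 at 20 or more.

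**Figure D1:**
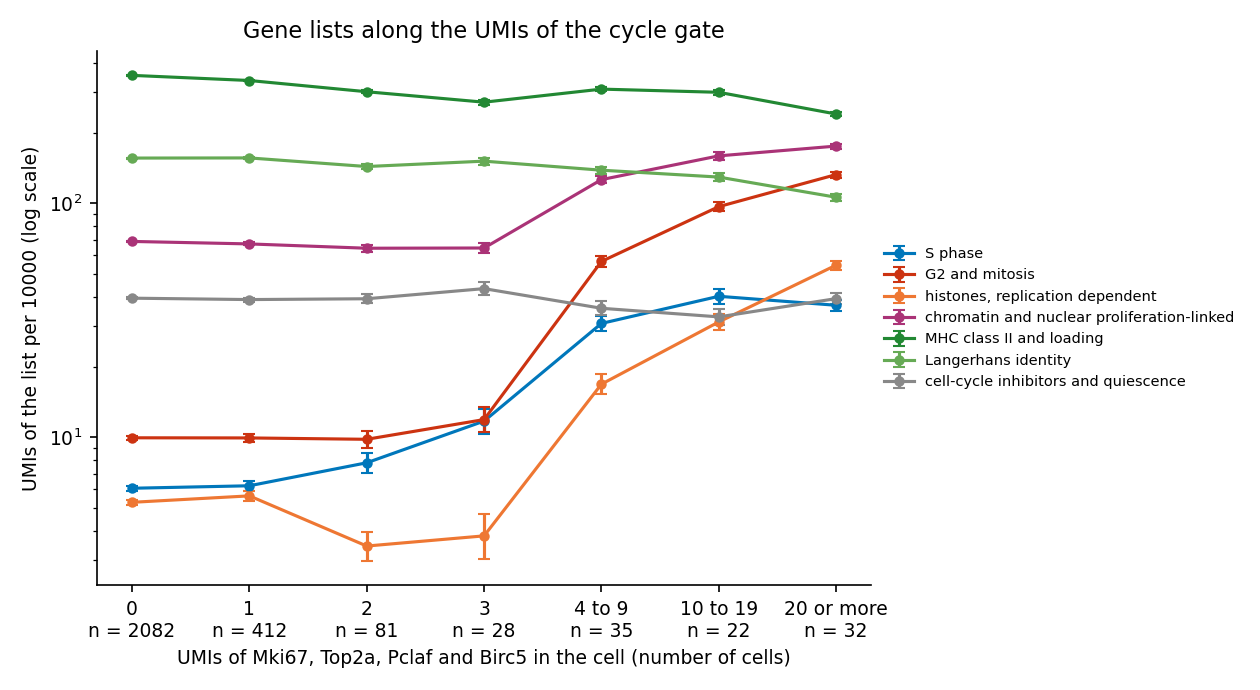
Summed UMIs of 7 gene lists per 10000 UMIs (vertical axis, log scale) in LCs grouped by their UMIs of Mki67, Top2a, Pclaf and Birc5 (horizontal axis, with the number of cells), pooled over 12 mice, with exact Poisson 95% intervals that cover counting error alone. The G2 and mitosis list stays between 9.82 and 11.9 up to 3 UMIs and reaches 56.5 at 4 to 9 UMIs.

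The S phase and G2 and mitosis lists together had a median of 15.1 UMIs per 10000 in the other LCs, 15.9 in proliferating LCs with 2 or 3 UMIs of the 4 genes, and 143 in those with 4 or more. The 99th percentile of the other LCs was 41.3 UMIs per 10000. Above it stood 9 of the 109 cells with 2 or 3 UMIs (8.26%), 81 of the 89 cells with 4 or more (91.0%), all 54 cells with 10 or more, and 25 of the 2494 other LCs. Of 84 cells with 4 or more UMIs of the 4 genes and at least 20 UMIs of the lists, 51 drew less than 1/3 of these UMIs from the S phase list, 33 between 1/3 and 2/3, and none more than 2/3.

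**Figure D2:**
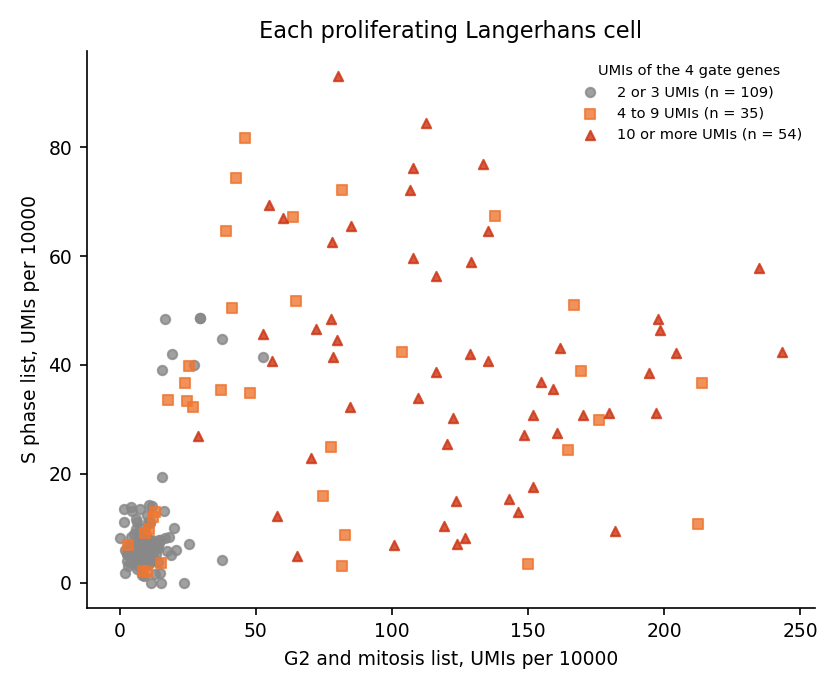
Each point is 1 of the 198 proliferating LCs, by its UMIs per 10000 of the G2 and mitosis list (horizontal) and of the S phase list (vertical), with symbols for its UMIs of the 4 genes of the rule. Most of the 109 cells with 2 or 3 UMIs lie near the origin, and all 54 cells with 10 or more lie beyond the 99th percentile of the other LCs, 41.3 for the sum of both axes.

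Free RNA from burst cells can place UMIs of a gene in a droplet whose cell does not express it. Over all LCs, 256 (males) and 281 (females) UMIs of the 4 genes were found for each 1000 UMIs of the 4 keratins. The keratinocytes of the same mice held 7.70 and 12.4. Most of these LC counts, 687 of 826 in males and 965 of 1238 in females, lay in the proliferating LCs, which the 4 genes had chosen. The other LCs, chosen for few such UMIs, held 47.8 and 71.3. The keratin limit of the rule lowers the keratin UMIs of the LCs, and the keratinocytes were chosen for their keratins. The gap between LCs and keratinocytes thus follows in part from the choice of cells and cannot measure free RNA. No measurement of empty droplets was used here, and the part of free RNA in the cells with 2 or 3 UMIs of the 4 genes was not tested.

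Because the rule split proliferating from other LCs, the following levels describe that split and carry no test. The G2 and mitosis list stood at 55.1 UMIs per 10000 in the 198 cells and at 9.97 in the other LCs, a ratio of 5.53, and the S phase list at 22.2 and 6.097, a ratio of 3.64. Each was higher in 12 of 12 mice, with G2 and mitosis levels of 20.2 to 110 across the mice in proliferating and 8.85 to 12.7 in other LCs. In the cells with 4 or more UMIs the ratios were 10.1 and 5.85, and in those with 2 or 3 UMIs 1.05 and 1.47. Among 9931 genes with at least 50 UMIs, 566 (5.7%) were at least 2-fold higher and 145 (1.46%) at least 2-fold lower in proliferating LCs. A gene that reached 50 UMIs only through the proliferating LCs had to differ. No count of list genes is therefore drawn from this filter, except for the ribosomal protein genes, all 81 of which passed it.

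Genes that open S phase and feed replication differed widely in their ratios. The other LCs kept a base level of some of them, such as Pcna and Nasp. Rrm2 was almost absent from other LCs, with a median over mice of 0.00302 UMIs per 10000. Dut, which removes dUTP so that uracil stays out of DNA, read 2.01 UMIs per 10000 in proliferating against 0.429 in other LCs (ratio 4.69) and was higher in 12 of 12 mice. Pcna, the sliding clamp, read 1.97 against 1.02 (ratio 1.93), higher in 11 mice. Rrm1 and Rrm2, the subunits of ribonucleotide reductase, had ratios of 7.68 and 68.1, Tyms, which makes thymidylate, 9.94, and the helicase subunits Mcm3, Mcm5 and Mcm6 6.24, 8.66 and 5.44. Gmnn, which blocks a further round of licensing, had a ratio of 3.98 and Uhrf1, which copies DNA methylation, one of 18.2. Nasp, a histone chaperone, stood at 1.64 against 0.884 (ratio 1.85). In the cells with 2 or 3 UMIs the ratio of Dut was 1.73, of Mcm3 2.71, of Tyms 2.17 and of Uhrf1 3.61, while Gmnn stayed at 1.10 and Usp1, a deubiquitinase of the replication fork, at 0.988.

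Many genes of G2 and mitosis were almost absent from other LCs. Stmn1, which takes microtubules apart, was the most abundant gene of its list in these cells, at 7.21 UMIs per 10000 against 0.184 (ratio 39.1). Across the mice Stmn1 lay between 1.21 and 15.8 in proliferating and between 0.105 and 0.269 in other LCs, so that the groups did not overlap in any mouse. Its lowest values were those of female HFD 2 and female HFD 3, 1.21 and 3.18, and the highest that of male RD 2, 15.8. Cdk1, the kinase that drives mitosis, had a ratio of 41.4, and its partners Ccna2, Ccnb1 and Ccnb2 107, 39.4 and 25.5. Ube2c, the enzyme with which the anaphase-promoting complex marks cyclins for destruction, was at 1.49 against 0.0139 (ratio 108), Cdc20, its activator, had a ratio of 47.8, and Prc1, which bundles the spindle midzone, 37.5. Hmgb2 (6.50 against 1.97, ratio 3.30) and Tuba1b (3.51 against 1.09, ratio 3.20) combined a high base level with a higher level in division, and each was higher in 12 of 12 mice.

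Cenpe, a kinetochore motor and the marker of a subtype of LCs in the study, read 0.640 UMIs per 10000 in proliferating and 0.0212 in other LCs (ratio 30.2). It was found in 25.3% of the proliferating and 1.04% of the other LCs. By mouse, Cenpe in proliferating LCs read 1.38, 1.501 and 0.290 in male RD, 0.545, 1.26 and 1.41 in male HFD, 0.393, 1.29 and 0.229 in female RD, and 0.538, 0.234 and 0.279 in female HFD mice. The groups overlapped, and each mouse stood above 0.0584, the highest value of Cenpe in other LCs. The proliferating LCs of a mouse held just 36704 to 316203 UMIs of all genes. In most mice a single UMI of Cenpe would already exceed 0.0584, so standing above it says little. The level of Cenpe was 1.26 in cells with 4 or more UMIs of the 4 genes and 0.0257 in those with 2 or 3.

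Replication-dependent histones, which are made while DNA is copied, read 20.2 UMIs per 10000 in proliferating and 5.35 in other LCs (ratio 3.78). Their level differed between male and female libraries, which cannot be told apart from the counting software: in other LCs it lay between 9.80 and 20.2 in the 6 males and between 1.86 and 2.19 in the 6 females. Within males the ratio was 4.23 (higher in 5 of 6 mice) and within females 2.99 (higher in 6 of 6). Most of these transcripts end without a poly(A) tail, and the kit captured RNA by its tail, and such transcripts are captured in part. Hist1h2ap was at 3.85 against 0.146 (ratio 26.4) and Hist1h1b at 1.89 against 0.0205 (ratio 92.2), while Hist1h2bc was at 2.25 against 2.41 (ratio 0.935). Histone genes of 1 cluster are near-identical, so reads may be shared among them and the values of single genes are uncertain.

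Chromatin proteins linked to proliferation summed to 110.1 UMIs per 10000 against 68.5 (ratio 1.61), higher in 11 of 12 mice. Tmpo, a lamina protein, had a ratio of 6.25, Smc2 and Smc4, the cores of condensin, 17.8 and 4.12, Dek 2.79 and Ezh2, the methyltransferase of Polycomb, 3.15. Dnmt1, the maintenance DNA methyltransferase, had a ratio of 3.36. H2afz, a histone variant with polyadenylated transcripts, was at 38.3 against 23.5 (ratio 1.63).

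The cyclins, kinases and E2F factors that decide on entry were near level as a list (9.38 against 8.87 UMIs per 10000, ratio 1.06), and single members went opposite ways. Ccnd1, cyclin D1, stood at 1.73 against 2.51 (ratio 0.689) and was lower in 10 of 12 mice, and in the cells with 4 or more UMIs it stood at 1.38. Its partner Cdk4 had a ratio of 2.50 and was higher in 12 mice. E2f1 had a ratio of 3.69, E2f8 of 6.52, Mybl2 of 11.4, and Rbl1 (p107), an E2F target that restrains E2F, of 4.92. Ccne1, cyclin E1, had a ratio of 5.99. Myc, in contrast, was at 0.298 against 0.408 (ratio 0.729).

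The list of inhibitors and quiescence genes was level (38.4 against 39.3 UMIs per 10000, ratio 0.979). Btg1 and Btg2, antiproliferative genes of resting cells, stood at 9.15 against 10.3 and at 12.4 against 11.4, and Btg1 was found in 93.9% of proliferating and 92.3% of other LCs. Cdkn1a (p21) read 6.67 against 8.53 (ratio 0.782), lower in 10 of 12 mice. The higher ones were Cdkn2c (p18, ratio 3.75), Cdkn2d (p19, ratio 4.38) and Cdkn3, a phosphatase of Cdk1 that peaks in mitosis (ratio 28.7).

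Genes of LC identity and of MHC class II were lower in proliferating LCs in 12 of 12 mice. The identity list read 134 UMIs per 10000 against 156 (ratio 0.858), was lower in 12 of 12 mice, and stood at 122 in the cells with 4 or more UMIs. Cd207 lay between 27.5 and 46.2 (median 38.3) in the proliferating LCs of the mice and between 40.6 and 54.2 (median 47.6) in their other LCs. Cd207 was lower in 11 of 12 mice, but as a gene of the rule it is given as a description. Tyrobp, the adaptor of activating receptors, read 10.1 against 15.1 (ratio 0.668), and Ltc4s, which makes leukotriene C4, 3.58 against 5.25 (ratio 0.682), both lower in 12 mice. Tbc1d4, a regulator of vesicle traffic, was at 22.0 against 25.6, and at 13.2 in the cells with 4 or more UMIs against 30.6 in those with 2 or 3. The master regulator Spi1 (PU.1), Runx3, needed for LC development, and Id2 stayed level, with ratios of 1.01, 1.02 and 1.03, as did Epcam (0.912) and Cdh1 (1.01), the adhesion proteins that tie LCs to keratinocytes.

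MHC class II and its loading machinery read 284 UMIs per 10000 against 349 (ratio 0.812), lower in 12 of 12 mice. H2-Aa was at 88.2 against 112, H2-Eb1 at 80.8 against 99.6, and Ctss, which trims the invariant chain, at 6.42 against 8.81. Ciita, the switch of these genes, was not lower (2.02 against 1.62, ratio 1.25). MHC class I and its loading genes read 35.1 against 38.0 (ratio 0.924) and were higher in 3 of 12 mice, male RD 1, male RD 2 and male HFD 1. Pooled over the sexes, the ratio of MHC class II was 0.835 in cells with 2 or 3 UMIs and 0.790 in those with 4 or more. Within males these ratios were 0.990 and 0.772, and within females 0.804 and 0.793. The lower level in cells with 2 or 3 UMIs was thus seen in females and hardly in males. Ribosomal protein genes read 1229 UMIs per 10000 against 1462 (ratio 0.840), with 79 of 81 genes lower where 6280 of all 9931 genes were higher, and lower in 12 mice. When each proliferating LC was set beside the 5 other LCs of its mouse nearest in UMIs, the ratios were 0.853 for identity, 0.860 for MHC class II and 0.895 for ribosomal proteins, the last 2 being nearer to 1 than against all other LCs. Depth was closer but not equal, with a median of 6736 UMIs in those cells. The median ratio of all 9931 genes was 1.08.

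Receptors of the LC niche and maturation genes did not follow a common direction. The list of niche and growth factor receptors had a ratio of 0.919 and was higher in 3 of 12 mice. Its ratio was 0.762 in cells with 4 or more UMIs and 1.07 in those with 2 or 3. Csf1r, the receptor of IL-34 on which LCs depend, read 5.44 against 6.54 UMIs per 10000 (ratio 0.832), and Csf2rb, the shared chain of the GM-CSF receptor, 5.50 against 6.53 (ratio 0.843). Tgfbr1, through which TGF-β keeps LCs in the epidermis, was at 1.16 against 0.732 (ratio 1.58, higher in 9 mice). The migration and maturation list had a ratio of 1.06, with 0.780 in cells with 4 or more UMIs and 1.34 in those with 2 or 3. Other LCs of female mice held more of it than those of male mice (53.6 against 28.7 UMIs per 10000), and within each sex the same order of ratios was found, with 0.722 and 1.16 in males and 0.836 and 1.29 in females.

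The list of genes the study names for LCs, of which a part is given here, had a ratio of 1.04 and was higher in 6 of 12 mice. Of these genes, Tnf was at 3.28 against 2.27 UMIs per 10000 (ratio 1.45, higher in 7 of 12 mice) and Ccl2 at 0.530 against 0.202 (ratio 2.63, higher in 8 mice). Ccl2 was found in 10.1% of proliferating and 4.77% of other LCs. Lpar3 (ratio 1.05), Ramp1 (1.11), Scn3a (0.958), Plxna1 (1.05) and Cd48 (0.887) stayed near 1, and Plxnb2 was at 1.303 and P2rx2 at 0.781. These are ratios of pooled counts, and with 6 to 9 mice on the same side most of them did not hold one direction.

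Outside every list, the genes with the highest ratios had few UMIs in other LCs, and some reached the minimum of 50 UMIs only through the proliferating LCs. Esco2, which locks sister chromatids together, had a ratio of 115 (52 UMIs in 198 proliferating and 4 in 2494 other LCs), Spc24, a kinetochore subunit, 61.9, Shcbp1 48.7, Brca1 47.5, Cep55, which acts in the final cut between daughter cells, 36.4, and Cenph 30.3. Dtl, Asf1b, Ncaph, Cenpp and Kif15 followed with ratios of 19.4 to 14.5. The genes with the lowest ratios were rare ones, with 0 to 2 UMIs in proliferating LCs: Cidea had 0 UMIs against 57 in other LCs, Serpina12 1 against 121 and Phkg1 1 against 91. A count of 0 allows up to 3 UMIs, and such limits cover counting error only.

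Transcripts of keratinocytes were uneven across the 198 cells. Counted per cell with the 4 keratins of the rule, the keratinocyte list had a median of 14.2 UMIs per 10000 in proliferating and 15.6 in other LCs, yet 4 proliferating LCs held over 100 (133 to 738), 3 of them from female HFD 1 and 1 from female HFD 2. Of the other LCs 14 did so. These 4 cells, with 16069 to 29236 UMIs each, supplied 251 of the 253 UMIs of Krt79, 225 of 233 of Krt17, 190 of 193 of Krt15 and 251 of 346 of Apoe in all proliferating LCs. The cell of female HFD 2 alone held 251 UMIs of Krt79 and 216 of Krt17, and 1 cell of female HFD 1 held 150 of Krt15. The list, now without the keratins of the rule, had a ratio of 1.23 in the pooled counts, which the 14 rich cells among the other LCs enter as well. Without the 4 proliferating cells the list had a ratio of 0.461 to all other LCs, and with a mouse left out one of 0.714 to 1.47. Within males its ratio was 0.379 and within females 2.41. Doublets were not called, and the rule demanded Cd207 and Cd74 of each such cell. Markers of T cells (11 UMIs in all 198 cells, 0.0711 per 10000 against 0.0855) and of other skin cells (14 UMIs, 0.0905 against 0.0483) were near 0, and the monocyte and macrophage list was lower (64.5 against 81.0), with Lyz2 at 0 UMIs.

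Of the 198 LCs that met the rule, 109 had 2 or 3 UMIs, and 9 of these stood above the 99th percentile of the other LCs. To ask whether diet or sex changed how many LCs met the rule, the share of LCs that did so was compared over mice. It was 5.91%, 6.33% and 9.73% in male RD, 4.31%, 5.97% and 11.9% in male HFD, 5.45%, 7.17% and 4.46% in female RD, and 8.96%, 9.77% and 10.4% in female HFD mice. The means were 7.33 ± 2.10, 7.39 ± 3.98, 5.69 ± 1.37 and 9.71 ± 0.725 (SD, n = 3 each). The female HFD mice lay above all female RD mice, while the male groups overlapped. A share from 1 mouse carried a wide exact binomial interval, for instance 1.41 to 9.77% for 5 of 116 LCs in male HFD 1 and 6.17 to 12.5% for 31 of 346 in female HFD 1, and these intervals cover counting error only.

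No difference in the share passed 0.05. HFD minus RD was 2.04 percentage points over both sexes (p = 0.195, two-sided exact permutation test within sex), 0.0637 points in males (p = 0.9, exact) and 4.02 points in females (p = 0.1, exact). The last is the smallest p that 3 mice against 3 allow. The diet effects of males and females differed by -3.95 points (p = 0.22, exact permutation), and males minus females was -0.345 points (p = 0.83, exact permutation within diet). Without male HFD 3 the difference was 0.915 points over both sexes (p = 0.515, exact permutation) and -2.19 points in males (p = 0.5, exact permutation).

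With at least 1 UMI of the 4 genes the difference was 5.30 points over both sexes (p = 0.05, exact permutation), 8.02 points in females (p = 0.1) and 2.57 points in males (p = 0.5). The difference in females lay in the cells with few transcripts of the 4 genes. The share of LCs with 2 or 3 UMIs was 6.63 ± 2.02% in female HFD and 3.03 ± 0.423% in female RD mice, and the share with 4 or more was 3.08 ± 1.34% and 2.67 ± 1.58% (SD, n = 3). HFD minus RD in females was therefore 0.409 points at 4 or more UMIs (p = 0.5, exact permutation). With every cell reduced to 2000 UMIs, leaving out 83 shallower LCs, it was 0.219 points (p = 1, exact permutation) and the difference over both sexes turned to -0.116 points (p = 0.885). The median depth of the proliferating LCs was 9236, 9224 and 7513 UMIs in female HFD and 8925, 7592 and 7458 in female RD mice, and that of the other LCs 6319, 7113 and 6297.5 against 6843, 5288 and 5639. The part of depth in the difference was not tested beyond the reduction to 2000 UMIs. Of the proliferating LCs 61.9% of the females and 43.1% of the males had 2 or 3 UMIs.

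LCs whose S phase and G2 and mitosis lists stood above the 99th percentile of the other LCs were counted as well, an alternative chosen after the data had been seen. The 4 genes enter this count only through the threshold, which by its construction also counts 25 of the 2494 other LCs. Their share was 6.06 ± 1.67% in male RD, 6.00 ± 2.77% in male HFD, 3.42 ± 2.09% in female RD and 3.24 ± 1.96% in female HFD mice (SD, n = 3). HFD minus RD was -0.124 points over both sexes (p = 0.855, exact permutation) and -0.186 points in females (p = 0.6, exact permutation). By this count males exceeded females by 2.70 points (p = 0.045, exact permutation within diet), which cannot be told apart from the counting software. The count by the 4 genes gave -0.345 points with at least 2 UMIs (p = 0.83, exact permutation). It gave 1.43 with at least 4 (p = 0.19) and 1.54 at 2000 UMIs per cell (p = 0.085, both exact permutation). Other LCs had median depths of 2642.5 to 5416 UMIs in male and 5288 to 7113 in female mice. The part of depth in the sex difference was not tested.

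**Figure D3:**
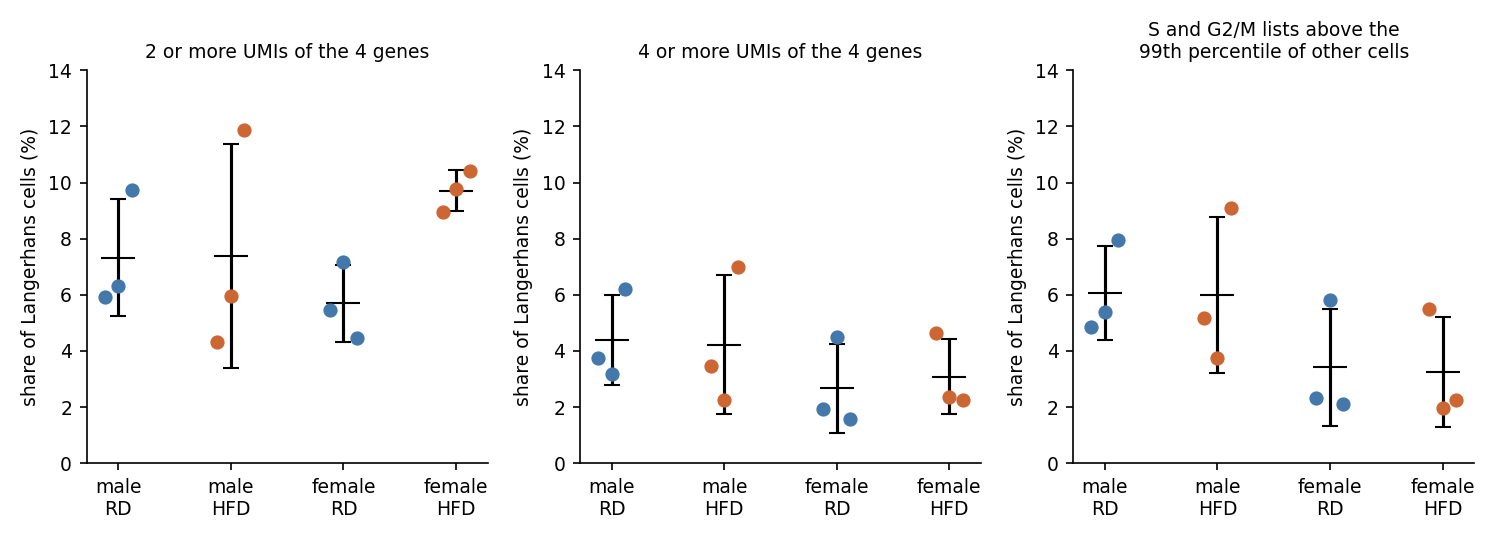
Share of LCs (%) in each mouse (points) with mean and SD of 3 mice, by 3 counts: at least 2 UMIs of the 4 genes, at least 4 UMIs, and S phase plus G2 and mitosis lists above the 99th percentile of other LCs. Female HFD mice (8.96 to 10.4%) lie above female RD mice in the left panel and overlap them in the other panels.

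Set beside the keratinocytes of the same mice, a smaller share of LCs passed the rule. At 2000 UMIs per cell, 3.30% of 2609 LCs and 12.1% of 106811 keratinocytes (keratins at least 1% of UMIs, no Cd207 and no Cd74) passed the rule on the 4 genes. The means over mice were 3.52 ± 1.45% and 11.9 ± 1.79% (SD, n = 12), with 1.34 to 5.67% in LCs and 9.63 to 14.6% in keratinocytes, so that the ranges did not overlap. The difference was -8.41 percentage points, lower in 12 of 12 mice (p = 0.000488, two-sided exact sign-flip permutation test, the smallest that 12 mice can give). Without the reduction the shares were 7.36% and 22.2%, at median depths of 5433.5 and 10624 UMIs.

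At 4000 UMIs per cell the difference was -6.59 points (p = 0.0781, exact permutation). Male RD 2 kept just 15 LCs of that depth, 53.3% of which passed. Without male RD 2 it was -9.98 points (p = 0.000977, exact permutation). Keratinocytes with at least 20 UMIs of Lor (loricrin, made in the granular layer) were set beside the LCs, a comparison added after the data had been seen. At 2000 UMIs, 1.98% of 4037 such cells passed, and LCs exceeded them by 1.74 points over mice (p = 0.00195, exact permutation). At 4000 UMIs, 4.35% of these cells and 5.59% of the LCs passed, pooled over mice. Without the reduction the order was reversed, with 11.5% against 7.36%, at median depths of 20104 and 5433.5 UMIs. Cells with 4 or more UMIs of the 4 genes then made up 7.55% against 3.31%.

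**Figure D4:**
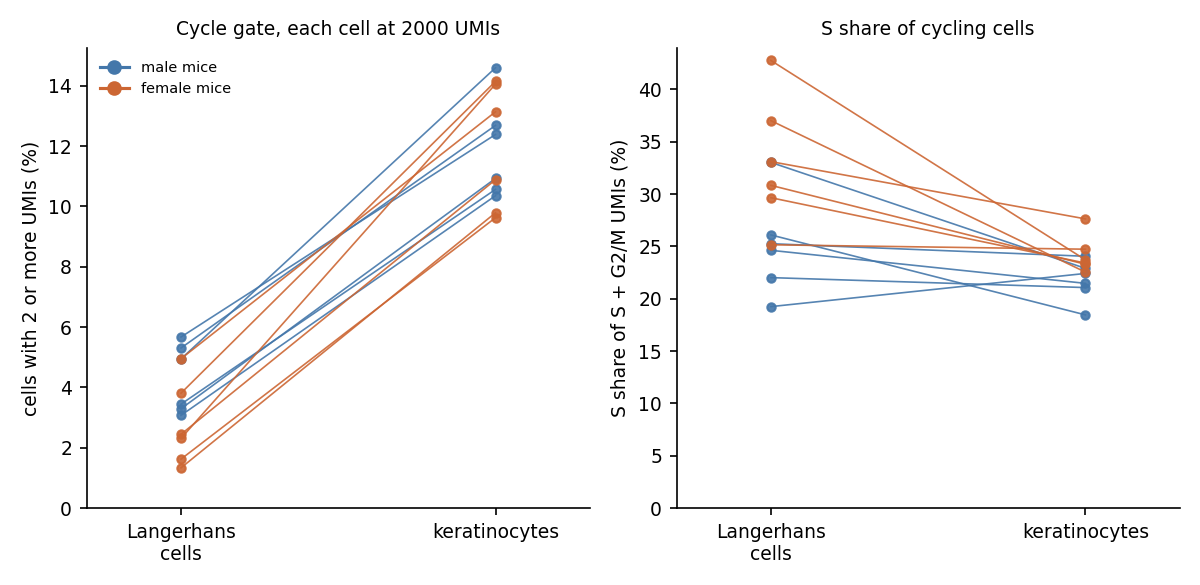
Left, share of LCs and of keratinocytes (%) with at least 2 UMIs of the 4 genes when each cell is reduced to 2000 UMIs. Right, S phase UMIs as a share (%) of S phase plus G2 and mitosis UMIs in proliferating LCs and cycling keratinocytes; each line is 1 of 12 mice. LCs lie lower in 12 mice on the left and higher in 11 mice on the right.

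Which stage the cells were in was compared through the S share, the UMIs of the S phase list divided by those of the S phase and G2 and mitosis lists together. It was 29.1 ± 6.68% in proliferating LCs and 22.98 ± 2.21% in the 24452 keratinocytes that passed the same rule (SD, n = 12 mice). The difference of 6.09 points (p = 0.00488, exact sign-flip permutation) was positive in 11 of 12 mice, and with cells of at least 4 UMIs it was 5.07 points (p = 0.0112, exact permutation). By mouse the S share of proliferating LCs ran from 19.3% in male RD 1 to 42.8% in female RD 3, a spread wider than the 18.5 to 27.6% of the keratinocytes. A mouse gave 5 to 31 proliferating LCs but 1222 to 3462 such keratinocytes, and the part of cell number in this spread was not tested. LCs and keratinocytes without any UMI of the 4 genes had S shares of 35.8 ± 5.36% and 34.8 ± 2.40%, above those of the cycling cells. Proliferating LCs held more cells with 2 or 3 UMIs (55.1% against 24.05%), and with at least 10 UMIs the difference was 2.29 points (p = 0.202, exact permutation, added after the data had been seen).

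The same 2 populations were then compared gene by gene within the cell-cycle lists, since both had passed the same rule on the 4 genes. Genes that mark the cell type were used to choose the cells and are not read. Of 14461 genes tested with edgeR, 3935 (27.2%) were higher and 3388 (23.4%) lower in proliferating LCs at an adjusted p under 0.05. Of 62 genes of G2 and mitosis 1 was higher and 28 lower (median log2 difference -0.50), and of 52 genes of S phase 1 was higher and 10 lower (median -0.30). Of 59 histone genes 13 were higher and 2 lower (median 0.43).

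These list directions moved with the rule and the scaling. With cells of at least 4 UMIs in both populations, 7 S phase genes were higher and 1 lower (median 0.24), 5 genes of G2 and mitosis were higher and 9 lower (median 0.06), and 21 histone genes were higher and none lower. Over all 13586 genes of that fit 23.5% were higher and 17.5% lower. When DESeq2's size factors were used, which moved the median of all genes from -0.02 to -0.65, 38 S phase genes and 56 of G2 and mitosis were lower and none higher, and 12 histone genes were lower and 1 higher, where 42.8% of all genes were lower and 17.5% higher. With TMM over all genes, the planned scaling, 27 S phase and 45 G2 and mitosis genes were lower and none higher, and 7 histone genes were lower and 2 higher (all genes 34.8% lower and 20.7% higher). Per 10000 UMIs the G2 and mitosis list read 55.1 in proliferating LCs and 81.1 in cycling keratinocytes, and 100.4 and 99.05 in the cells with 4 or more.

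Single genes that kept their direction and passed the test under each of 5 other scalings or rules differed by large factors. Ccnd2, cyclin D2, read 0.120 ± 0.140 UMIs per 10000 in proliferating LCs and 1.68 ± 0.837 in cycling keratinocytes (SD over 12 mice, log2 difference -3.35 ± 0.30 SE, edgeR adjusted p = 6.12e-11), and it was lower in 12 mice. Cdk4 was at 0.415 against 1.04 (log2 -1.49) and Ccnd1 at 1.86 against 3.18 (log2 -0.86). Myc and Mycl were lower as well, by -1.89 and -1.92. Klf4 and Klf6, which restrain division in many epithelia, were lower (log2 -2.53 and -1.49), whereas Btg1 was higher, at 8.83 ± 2.01 against 2.16 ± 0.506 (log2 1.96 ± 0.11 SE, edgeR adjusted p = 1.58e-15). Lin54, the subunit of MuvB that reads the CHR, was higher too, at 2.36 ± 1.21 against 0.392 ± 0.185 (log2 2.51 ± 0.16 SE, edgeR adjusted p = 6.61e-14). Pooled over cells, other LCs held 2.63 UMIs per 10000 of Lin54 and 10.3 of Btg1, so neither level was limited to division. The low levels of Ccnd2 and Klf4 were not limited to division either. Their medians over mice were 0.0837 and 1.49 in other LCs and 0.0961 and 1.25 in proliferating LCs. Those of Ccnd1 and Cdk4 were 2.71 and 0.154 in other LCs and 1.83 and 0.363 in proliferating LCs. Ccnd2 (chr6:127125162-127152193), Lin54 (chr5:100441918-100500639) and Btg1 (chr10:96617006-96622809) are placed by the GENCODE annotation of GRCm38.

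Among genes of mitosis, Anln, which scaffolds the contractile ring, was lower in proliferating LCs (0.287 ± 0.307 against 1.64 ± 0.554, log2 -2.74), as were Tubb4b (log2 -1.32), Ccnb1 (-1.68), Cdc20 (-1.56) and Ube2c (-1.21). Hmgb2 was lower by -0.99. Tuba1b was the gene of G2 and mitosis that was higher (4.21 against 2.10, log2 0.80), but with DESeq2's size factors it was at 0.10 and no longer passed. Stmn1, at 8.97 against 8.08, and Pcna, at 2.09 against 1.72, did not differ past the threshold (log2 -0.15 and 0.16, adjusted p = 0.55 and 0.358, edgeR). Both passed as lower with DESeq2's size factors (log2 -0.86 and -0.51) and as higher at 4 or more UMIs (log2 0.44 and 0.48). Cdkn2b (p15) and Cdkn1c (p57) had no UMI in proliferating LCs and 0.138 and 0.0511 per 10000 in cycling keratinocytes.

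**Figure D5:**
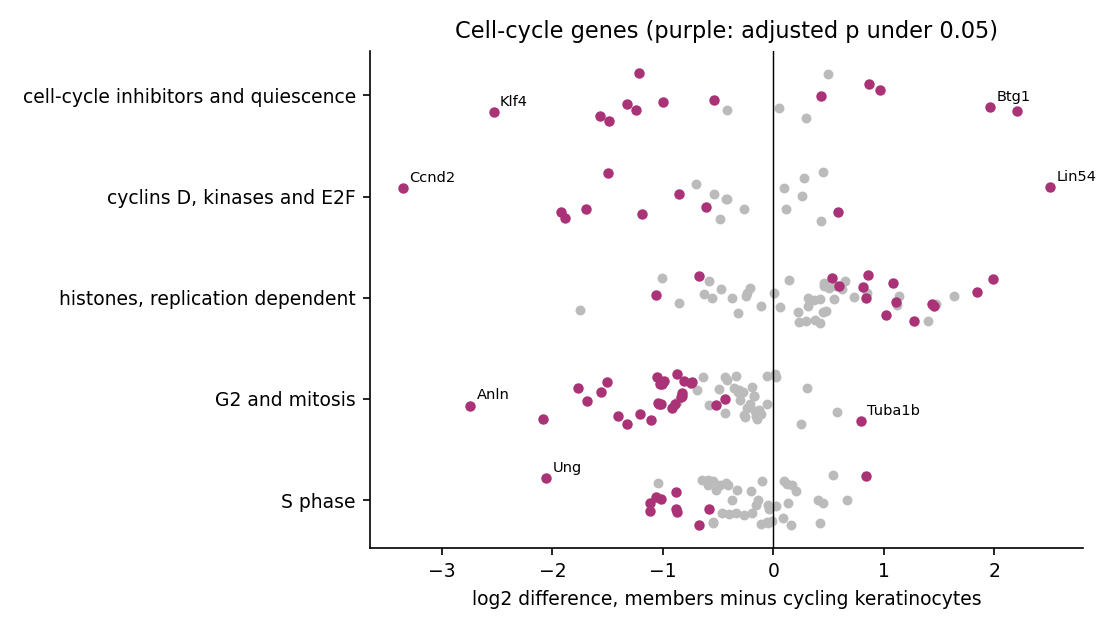
log2 difference of proliferating LCs minus cycling keratinocytes (horizontal) for the genes of 5 cell-cycle lists (rows), from edgeR over 12 mice with the mouse as a block, purple where the adjusted p is under 0.05. Genes without a UMI in proliferating LCs are left out. G2 and mitosis genes lie mostly left of 0 here, with 28 lower and 1 higher, but 9 lower and 5 higher when both populations are cut at 4 UMIs.

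Within proliferating LCs, HFD was compared with RD over all 12 mice with sex as a covariate. Of 2615 genes that passed the filter on low counts, 0 (0%) had an adjusted p under 0.05 by edgeR, and 146 had an unadjusted p under 0.05. DESeq2 called 4 genes, named here after their values were seen: Fth1, H2-M2, mt-Cytb and Cacnb2. No gene of the S phase list (11 tested) and 1 of the G2 and mitosis list (25 tested, lower) reached an unadjusted p under 0.05, and their median log2 differences were 0.04 and -0.17. The depth was low, with 36704 to 316203 UMIs per mouse over all its proliferating LCs.

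The genes nearest the threshold were followed mouse by mouse. They were picked by their p, so their separation by diet describes that choice and adds no support. H2-M2, a nonclassical MHC class I gene of LCs and dendritic cells, read 2.00, 1.64 and 2.17 UMIs per 10000 in male RD, 7.36, 2.73 and 4.41 in male HFD, 1.26, 1.45 and 2.44 in female RD and 5.95, 2.73 and 3.91 in female HFD mice. Every HFD mouse lay above every RD mouse (log2 1.28 ± 0.25 SE, edgeR adjusted p = 0.0673). The other LCs gave the same picture for H2-M2, with 1.71 to 2.30 on RD and 3.07 to 5.93 on HFD. Fth1, the heavy chain of ferritin, read 96.3, 99.8 and 105 in male RD against 50.7, 71.1 and 63.8 in male HFD, and 62.9, 72.0 and 60.7 in female RD against 48.8, 44.8 and 54.3 in female HFD mice. Within each sex the diets did not overlap (log2 -0.55 ± 0.10 SE, edgeR adjusted p = 0.0636), whereas in other LCs the Fth1 values of the females did, with 67.3 to 83.9 on RD and 58.3 to 71.6 on HFD. The mitochondrial gene mt-Cytb, a subunit of complex III, was at 10.6 to 14.6 in male RD and 19.1 to 23.9 in male HFD, and at 5.81 to 8.46 in female RD and 9.71 to 11.8 in female HFD mice (log2 0.67 ± 0.14, edgeR adjusted p = 0.0673). In other LCs mt-Cytb was at 9.54 to 10.9 on RD and 19.1 to 20.04 on HFD in males, and at 6.92 to 7.98 and 9.73 to 11.4 in females. Of the mitochondrially encoded genes, which are also read as a sign of cell quality, 4 of 11 had an unadjusted p under 0.05 and were higher on HFD (median log2 0.26 over the 11). Among all genes tested, 78 of 2615 did so. In proliferating LCs the list read 243 to 270 UMIs per 10000 on RD and 272 to 321 on HFD in males. In females the diets overlapped, with 116 to 152 and 140 to 177. In other LCs the list read 223 to 232 on RD and 281 to 290 on HFD in males, and 122 to 133 and 151 to 171 in females. The part of cell quality in this was not tested.

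Of the 14 keratinocyte genes tested, 8 had an unadjusted p under 0.05 and were higher on HFD (median log2 1.01), against 78 of all 2615 genes. Without the 4 cells rich in keratinocyte RNA, all from HFD females, 0 of 9 did (median -0.003), against 83 of 2592 genes. Tnf, which the study follows, differed by 1.11 (log2) and Mfge8, a bridge to dying cells, by -0.51, with edgeR adjusted p = 0.225 and 0.102. Genes of MHC class II (11 tested) had a median log2 difference of -0.06, and none reached an unadjusted p under 0.05.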

How the data were processed

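Unsorted epidermal cells of 12 mice (1 library each) were profiled with 10x 3′ chemistry. The authors made the deposited counts, which are raw UMI counts per gene and barcode of called cells against the 10x mm10 transcriptome (GRCm38), with Cell Ranger. The submitters' processing notes name Cell Ranger 7.2.0, whereas the headers of the male matrices name 6.1.0, and the handling of intronic reads is not given in the sources used here. The libraries held 134449247 to 194673581 UMIs and 140392 barcodes in all, of which 127755 had 200 to 6000 genes and at most 5% mitochondrial UMIs. Doublets were not called.

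The members and all gene lists were chosen with earlier results of these data known. Levels are UMIs per 10000 UMIs, pooled over cells unless a mouse is named, and a summed list leaves out every gene of the rule, Cd207, Cd74 and the keratins included. In the gene-by-gene comparison with cycling keratinocytes, levels of single genes are instead means over the 12 mice and differ from the pooled ones. The log2 differences there come from the fit and can differ in sign from these means. Named genes were the genes of the rule, the up to 6 most abundant genes of each list, list genes with at least 10 UMIs in proliferating LCs and a ratio of at least 2 or at most 0.5, the genes the study names for LCs, the 12 highest and 12 lowest ratios outside the lists (at least 50 UMIs, same direction in at least 10 mice), the up to 10 called genes with the largest change in each fit, and markers of other cell types. Further list genes near a ratio of 1, the genes called against keratinocytes under every scaling and the genes nearest the threshold for diet were chosen after their values were seen. Among the genes that meet this rule, 1 is left out and not reported here. Depth was equalised by drawing 2000 UMIs per cell. Shares were compared over mice by two-sided exact permutation, within sex or diet, and LCs with keratinocytes by sign flips over mice. Shares of single samples, and the pooled shares of LCs, Ccr7+ LCs and T cells, have exact Clopper-Pearson 95% intervals.

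Counts summed per mouse were tested with edgeR 4.0.16 (quasi-likelihood, Benjamini-Hochberg adjustment) in R 4.3.3: HFD against RD with sex as covariate, and LCs against keratinocytes with the mouse as a block. For the latter, TMM factors were taken over the 1090 genes with enough counts in the shallowest library, which departs from the planned TMM. Which scaling is nearer the truth was not tested. Each SE of a log2 difference was back-calculated, as the absolute log2 difference divided by the square root of its quasi-likelihood F statistic. DESeq2 1.42.0, other scalings, filters and thresholds, and each mouse left out served as alternatives. Scripts were tested on simulated data and ran in Python 3.11.15.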

Additional observations from a re-analysis of the deposited data

How the results depend on the processing

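Alternatives for the share by the 4 genes moved its small differences across 0 or made differences larger or smaller. HFD minus RD over both sexes fell from 2.04 points to 0.936 with at least 3 UMIs and to 0.131 with at least 4. In females it fell from 4.02 to 1.68 and 0.409, and to 0.219 at 2000 UMIs per cell. With at least 1 UMI, HFD minus RD was 5.30 points over both sexes (p = 0.05, exact permutation), 8.02 in females and 2.57 in males. Males minus females (-0.345 points) was 0.986 with at least 3 UMIs, 1.43 with at least 4, 1.54 at 2000 UMIs per cell and 2.70 when cells were counted by the S phase and G2 and mitosis lists. HFD minus RD in males (0.0637) was -0.148 with at least 4 UMIs, -0.451 at 2000 UMIs, -0.0415 with a mitochondrial limit of 10%, -0.143 with at most 4000 genes and -0.0628 by the lists. Over both sexes it was -0.116 at 2000 UMIs and -0.124 by the lists, and in females -0.186 by the lists. Leaving out each mouse gave 0.915 to 2.81 over both sexes, 3.40 to 4.76 in females, -2.19 to 1.60 in males and -1.47 to 0.425 for males minus females. The causes were not tested. The counts by the lists, the comparison with Lor keratinocytes, the threshold of 10 UMIs and the fits without 4 keratinocyte-rich cells, with library size or with 4 UMIs were chosen after seeing the data, as was TMM over 1090 genes in place of the planned TMM over all genes.

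LCs minus keratinocytes was -6.59 points at 4000 UMIs, 1.74 against Lor keratinocytes, and -8.57 to -8.11 with a mouse left out. The S share difference was 2.29 points with at least 10 UMIs and 4.91 to 6.93 with a mouse left out. The diet fit called 0 genes with edgeR, 4 with DESeq2, 1 with DESeq2's size factors (Fth1), 73 without the filter on low counts, 6 with at least 1 UMI, 3 without the keratinocyte-rich cells, and 0 to 4 with a mouse left out. The 73 genes, of 14711 tested, were higher on HFD in 66 cases and included keratinocyte genes such as Krt79, Krt17, Krt15, Flg, Lor and Lce1b. Nearly all UMIs of Krt79, Krt17 and Krt15 lay in the 4 keratinocyte-rich cells, all from HFD females. Without male HFD 2 it called 2 genes, without female HFD 2 it called 3 and without female HFD 3 it called 4.

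Calls between LCs and keratinocytes numbered 7323 (3935 higher, 3388 lower), 7996 with DESeq2 (2758 and 5238), 8719 with its size factors (2527 and 6192), 8015 with TMM over all genes (2988 and 5027, the median of all genes moving to -0.41), and 6822 to 7280 with a mouse left out. Without the replicate block, which here is the mouse, 6021 genes were called. Replicate numbers shared by RD and HFD mice were not used as pairs in the main tests. Same-numbered mice had correlations of -0.179 to 0.0112 in proliferating LCs. In all LCs these were 0.0286 to 0.0906 in males and -0.419 to -0.184 in females. The shares of same-numbered males left their group means in the same direction (RD and HFD: -1.41 and -3.08, -0.997 and -1.42, 2.41 and 4.50 points). In females number 3 went opposite ways (-1.23 and 0.696). With the number as replicate block the share gave p = 0.125 over both sexes, 1 in males and 0.25 in females (exact permutation) and the diet fit called 0 genes, 158 at an unadjusted p under 0.05. Restricted to cells with 4 or more UMIs, list ratios moved to 5.85 for S phase, 10.1 for G2 and mitosis, 6.94 for histones and 0.781 for LC identity. For histones the ratio was 6.11 within males and 5.52 within females, both below the pooled value. The diet fit rests on 5 to 31 cells per mouse.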

Other observations

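In proliferating LCs, glycolysis genes read 24.4 UMIs per 10000 against 22.3 in other LCs (ratio 1.09, higher in 11 of 12 mice), and 27.8 in the cells with 4 or more UMIs of the 4 genes and 20.96 in those with 2 or 3. Ldha, which makes lactate, was at 2.94 against 2.15 (ratio 1.37) and higher in 12 mice. Nuclear genes of the respiratory chain differed between the sexes, and in males they read 213 in the cells with 4 or more UMIs, 169.7 in those with 2 or 3 and 173 in other LCs, in females 143, 117 and 135. These ratios are a description of the groups that the rule made.

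LCs with a Ccr7 UMI, which the rule left out, and T cells of the same libraries were set beside the LCs. At 2000 UMIs per cell, 5 of 141 Ccr7+ LCs (3.55%, exact interval 1.16 to 8.08%) and 16 of 158 T cells (10.1%, 5.90 to 15.9%) had at least 2 UMIs of the 4 genes, against 86 of 2609 LCs (3.30%, 2.64 to 4.06%). These intervals pool the cells of all mice and cover counting error only. By mouse the share ran from 1.34 to 5.67% in LCs and from 0 to 50% in T cells. For the T cells 177 of 335 cells were too shallow and were left out.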
